A study of Homo sapiens with 3 samples.

Results

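The genes described here code for the protein core of the spliceosome, the machine that removes introns from messenger RNA, and for a set of splicing factors that work with it. They are 47 genes chosen by name: the Sm and LSM ring proteins, the proteins particular to the U1, U2, U5 and U4/U6 small nuclear ribonucleoproteins (snRNPs), both subunits of U2AF, PRPF19 and 9 SR proteins. Of these, 44 had a row among the 22613 genes listed. LSM2, LSM8 and SRSF10 had none under those symbols and are not analysed here. The 44 were expressed well above the minimum level set for testing, a mean of 1 FPKM (fragments mapped to a transcript, scaled by its length and by the size of the library), with control means from 13.6 to 159.6 FPKM, so no member was lost to that filter.

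RNA sequencing compared LNCaP-abl cells in which E2F1 had been silenced with cells given control siRNA. LNCaP-abl cells descend from the prostate cancer line LNCaP and grow without androgen, and all cells were kept in medium with charcoal-stripped serum. Both groups were transfected with a lipid reagent and harvested 72 h later, the siE2F1 group (1 library) with a pool of siRNAs against E2F1 and the control group (2 libraries, numbered 0 and 1 in the labels) with control siRNA. The labels do not say whether the control libraries came from separate cultures, so p-values measure only the spread between them, which may be technical, and no siE2F1 value has a replicate. The E2F1 transcript, which encodes an activator of genes for entry into S phase, measured 10.61 and 10.63 FPKM in the control libraries and 1.68 FPKM in siE2F1 (log2 fold change -2.12, SE 0.0605, limma adjusted p = 0.0311). All 8 luminal prostate markers lay at 14.6 FPKM or more in each library. Of 12 markers of basal, leukocyte, fibroblast and endothelial cells 5 had a row, with summed levels of 6.21 and 6.30 FPKM in the control libraries and 5.71 FPKM in siE2F1, and the basal keratin KRT14 was listed at 0 throughout. In bulk samples such as these, fewer cells of a type and less RNA per cell cannot be told apart. The files hold no read counts, so the depth of the libraries is unknown.

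Each spliceosomal snRNP consists of a small nuclear RNA wrapped by a ring of Sm proteins, or of LSM proteins in the case of U6, together with proteins particular to that RNA. U1 reads the start of an intron, U2 with U2AF its branch point and end, and the joined U4/U6.U5 particle brings in the RNAs that form the active centre. SR proteins bind exons and guide the snRNPs to nearby splice sites.

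Most spliceosome genes differed little between siE2F1 and control, and SNRPB was the one member far from the others. SNRPB, which encodes the Sm proteins SmB and SmB′, was at 148.0 and 147.8 FPKM in the control libraries and 55.3 FPKM in siE2F1. Among the other 43 members the log2 fold change ran from -0.45 to 0.44, and 35 of all 44 lay within 0.25 log2 units of the control mean. For 22 of the 44, siE2F1 lay beyond the nearer control by more than the controls differed from each other. Neither count was made over all genes tested, so neither can be read as particular to these genes. The siE2F1 value was below both controls for 27 members, above both for 9 and between them for 8. Over all 14401 genes tested, 39.7% were below both controls and 43.7% above both. The members' median log2 fold change was -0.12, or -0.15 against control 0 and -0.079 against control 1, where the median over all genes tested was 0.014, and the median distance between the controls was 0.095 for members. All fold changes are differences of log2(FPKM + 1), siE2F1 minus control.

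No member passed limma at an adjusted p of 0.05 among all genes tested, where 0.417% of genes passed (0.104% lower and 0.312% higher). At an unadjusted p under 0.05 there were 10 members, 8 lower and 2 higher, against 28.4% of all genes tested. By direction, 2149 of the 14401 genes tested were lower and 1938 higher at that threshold. In the fit without small RNA genes, 4 members passed: SNRPB, SF3A2 and SRSF7 fell and SF3B1 rose. In that fit 6.36% of 13928 genes fell and 4.17% rose (10.5% together), so 3 and 1 of 44 are near the shares of all genes. By size, SNRPB alone lay at least 0.5 log2 units below the nearer control and no member lay that far above it, against 4.92% and 3.46% of all genes tested.

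**Figure D1:**
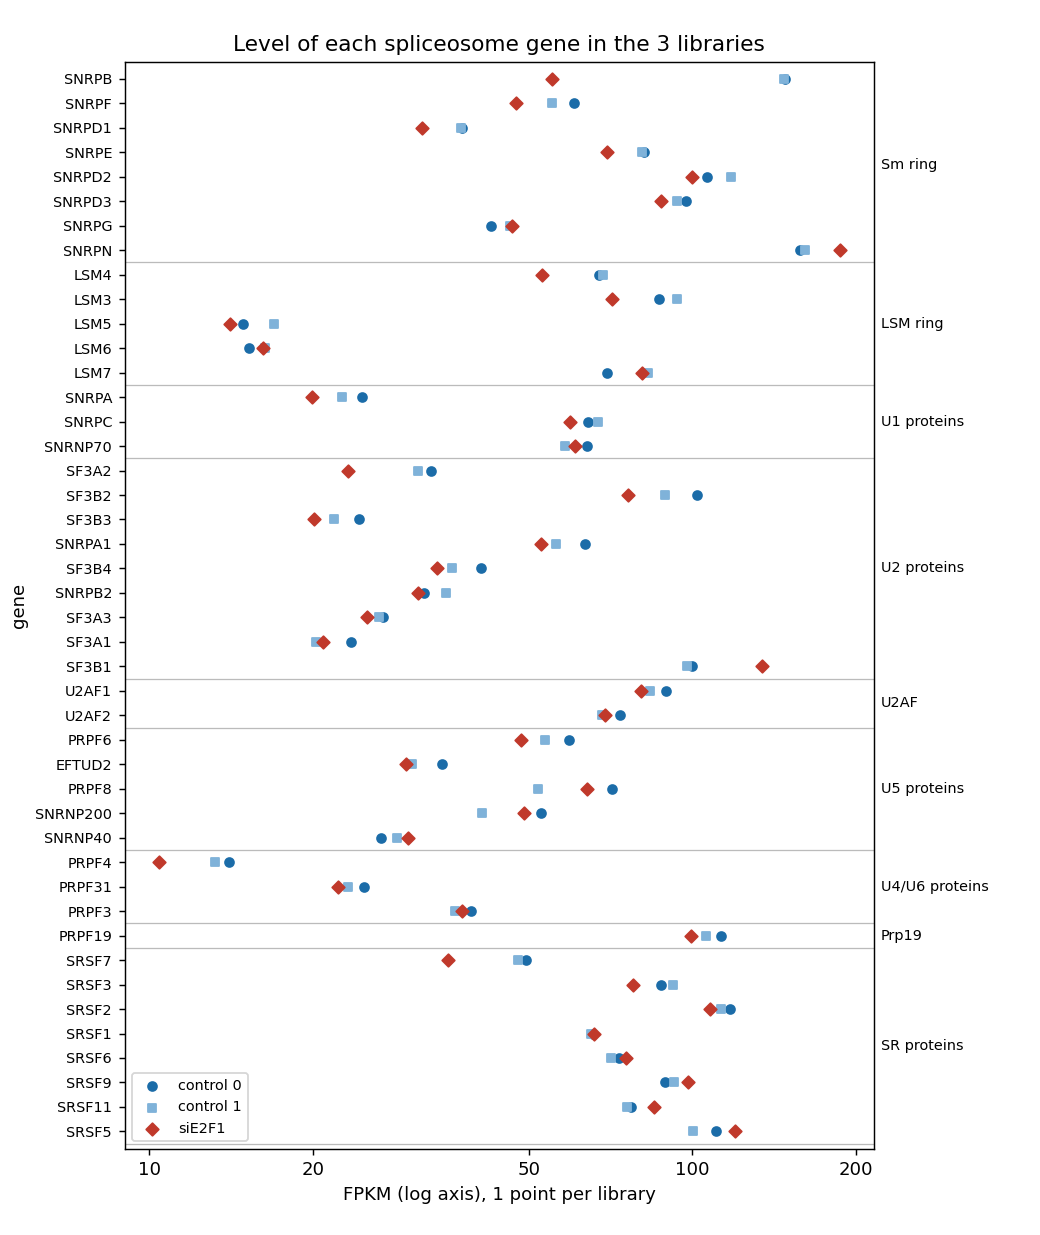
Level of each of the 44 listed members in FPKM on a log axis, 1 point per library (circles control 0, squares control 1, diamonds siE2F1), grouped by role. SNRPB stands out at 55.3 FPKM in siE2F1 against 148.0 and 147.8 FPKM in the controls, while most siE2F1 points lie close to the control points of the same gene.

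The promoters of the 4 genes that passed in the fit without small RNA genes are shown here, since E2F proteins bind DNA at promoters. That of SNRPN, the paralogue of SNRPB, is added although SNRPN passed in neither fit. For each gene only the first promoter entry listed was used, and any other start was not searched. Each runs from 250 bases before the start to 30 bases after it, 5′ to 3′ along the gene, from RefSeq on GRCh38.p14. Capitals mark a match to the E2F core, searched on both strands in any of 4 forms. The forms were TTCCCGC, then the form TTGGCGC, then the form TTCGCGC, and last the form TTGCCGC. SNRPB lies on the minus strand at chr20:2470760-2471039, SNRPN on the plus strand at chr15:24856321-24856600, SF3A2 on the plus strand at chr19:2236574-2236853, SRSF7 on the minus strand at chr2:38751465-38751744 and SF3B1 on the minus strand at chr2:197434999-197435278.
SNRPB: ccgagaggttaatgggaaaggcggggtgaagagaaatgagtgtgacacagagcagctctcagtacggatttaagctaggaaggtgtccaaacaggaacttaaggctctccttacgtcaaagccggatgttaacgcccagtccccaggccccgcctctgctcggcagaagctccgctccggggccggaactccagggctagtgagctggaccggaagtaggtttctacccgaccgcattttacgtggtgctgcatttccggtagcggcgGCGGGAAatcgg
SNRPN: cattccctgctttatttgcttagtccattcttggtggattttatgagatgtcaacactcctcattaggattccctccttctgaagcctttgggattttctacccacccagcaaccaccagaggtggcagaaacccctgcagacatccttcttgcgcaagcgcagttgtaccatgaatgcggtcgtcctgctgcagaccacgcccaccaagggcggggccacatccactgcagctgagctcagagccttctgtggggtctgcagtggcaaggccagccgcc
SF3A2: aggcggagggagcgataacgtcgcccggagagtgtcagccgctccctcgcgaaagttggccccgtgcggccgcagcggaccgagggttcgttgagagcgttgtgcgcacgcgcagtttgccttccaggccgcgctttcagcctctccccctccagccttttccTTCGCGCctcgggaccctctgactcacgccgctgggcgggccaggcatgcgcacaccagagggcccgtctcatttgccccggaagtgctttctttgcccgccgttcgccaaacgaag
SRSF7: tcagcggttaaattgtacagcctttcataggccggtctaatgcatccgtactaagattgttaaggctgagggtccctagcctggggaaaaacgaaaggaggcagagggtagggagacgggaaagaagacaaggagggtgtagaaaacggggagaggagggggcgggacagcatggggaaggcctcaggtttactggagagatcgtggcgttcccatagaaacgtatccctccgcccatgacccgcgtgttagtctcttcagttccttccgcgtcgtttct
SF3B1: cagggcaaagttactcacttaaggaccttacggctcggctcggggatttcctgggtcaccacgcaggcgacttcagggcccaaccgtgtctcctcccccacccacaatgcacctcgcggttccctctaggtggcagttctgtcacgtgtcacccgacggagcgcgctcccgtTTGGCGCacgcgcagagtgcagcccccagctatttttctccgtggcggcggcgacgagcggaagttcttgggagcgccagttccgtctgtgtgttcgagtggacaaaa

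SNRPB had 1 match, from 19 to 25 bases after the start, reading TTCCCGC on the opposite strand. SF3A2 had TTCGCGC from 87 to 81 bases before the start, and SF3B1 had TTGGCGC from 78 to 72 bases before it. No match was found in the windows of SNRPN and SRSF7, and any other start of these genes was not searched. Whether the SNRPN window is at the start used in these cells was not tested. Promoters were found for 39 of the 44 members, all but SNRPD1, LSM6, SF3B3, PRPF3 and SRSF2. In windows of 300 bases, 10 of these 39 (25.6%) held a match, against 21.1% of the 8828 promoters matched to tested genes. Both shares use the first entry per gene. Among all 35116 promoters 13.0% held a match, but these are every entry listed and include genes not tested, so that share is not a like one. Of the 10 members with a match, siE2F1 was below both controls for 5 (SNRPB, LSM3, LSM4, SNRPC and SF3A2), above both for 3 (SF3B1, SNRNP40 and SRSF9) and between them for 2 (SF3A1 and U2AF2). Of the 29 without one it was below both for 19, above both for 6 and between for 4. A match is a description of letters and says nothing about binding in these cells. No member's matches overlapped each other.

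In the Sm ring SNRPB was far below the controls, 5 genes were slightly below both, and SNRPN and SNRPG were above both. Its 8 genes had a median log2 fold change of -0.19 (-0.19 against control 0 and -0.22 against control 1), and siE2F1 was below both controls for 6 and above both for 2. The SNRPB level in siE2F1 was 37.4% of the control mean of 147.9 FPKM ± 0.198 (SD, n = 2), a 2.65-fold difference on the log2(FPKM + 1) scale. Its log2 fold change was -1.40 (SE 0.0621), with an adjusted p of 0.0746 over all genes tested and 0.0184 in the fit without small RNA genes (limma). The control values almost coincide and the siE2F1 value lies far below both. SNRPB had the 30th lowest log2 fold change of the 13928 genes other than small RNA genes. GENCODE v29 names 1 pseudogene after SNRPB and 1 same-strand gene with overlapping exons, which could share its reads. SNRPB was known to be the lowest member from an earlier look at these data. Its place is therefore a description, and its p-values come from the same values that singled it out.

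SNRPN encodes SmN, which takes the place of SmB in the ring and is best known from neurons, and it is transcribed from an imprinted locus together with SNURF. It was at 158.0 and 161.3 FPKM in the control libraries and 186.6 FPKM in siE2F1, above both (log2 fold change 0.22, SE 0.0652, adjusted p = 0.175). Exons of SNRPN overlap those of SNURF, SNHG14 and AC124312.1 on the same strand, so reads could be divided among these genes. SNURF was at 86.3, 68.2 and 101.3 FPKM in control 0, in control 1 and in siE2F1. The ratio of SNRPN to SNRPB was 1.07 and 1.09 in the controls and 3.38 in siE2F1. This ratio was chosen with the SNRPB values known, so it is a description. With 1 library against 2, an exact permutation test of the ratio cannot go below p = 0.333, the value it gave (two-sided), so the test cannot decide. The sum of both genes was 306.1 and 309.0 FPKM in the control libraries and 241.9 FPKM in siE2F1. SNRPB and SNRPN are close in sequence, so the authors' counting could divide some reads between them.

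**Figure D2:**
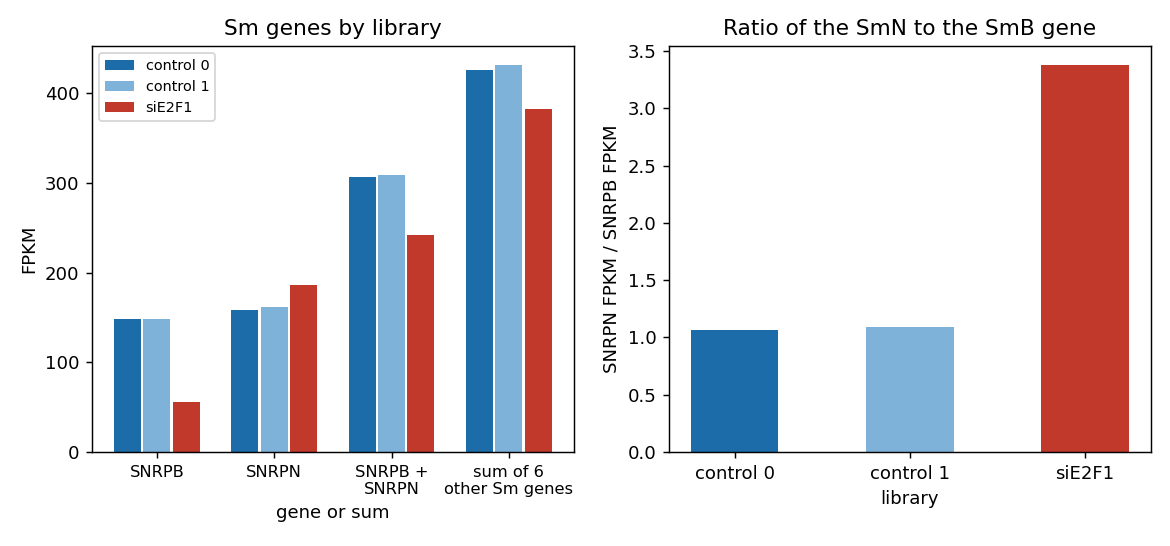
Left, FPKM of SNRPB, SNRPN, their sum and the sum of the 6 other Sm genes in the 3 libraries (bars, axis from 0); right, the ratio of SNRPN to SNRPB FPKM in each library. The ratio is 1.07 and 1.09 in the controls and 3.38 in siE2F1, and each bar is 1 library, so there is no error bar.

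The 6 other Sm genes encode the subunits that complete the ring. Together they summed to 425.8 and 431.1 FPKM in the control libraries and 382.7 FPKM in siE2F1. SNRPF was at 60.6 and 55.2 FPKM in the control libraries and 47.3 FPKM in siE2F1 (log2 fold change -0.28, SE 0.0928). SNRPD1 was at 37.7 and 37.5 FPKM in the control libraries and 31.8 FPKM in siE2F1 (-0.24, SE 0.0599). For both genes the siE2F1 library was the lowest, by more than the controls differed from each other. SNRPE was at 81.4 and 80.9 FPKM in the control libraries and 69.7 FPKM in siE2F1. SNRPD2 was at 106.3, 117.7 and 99.98 FPKM and SNRPD3 at 97.2, 93.6 and 87.5 FPKM in control 0, in control 1 and in siE2F1. These 2 genes were also lowest in siE2F1, but the gap from siE2F1 to the nearer control was smaller than the difference between the controls for SNRPD2. SNRPG was the exception among the 6, at 42.6, 46.1 and 46.5 FPKM. GENCODE v29 names 20 pseudogenes after SNRPG, 9 after SNRPE and 4 after SNRPF, which could share reads with these genes.

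The LSM ring holds the end of U6 RNA, and some of its subunits also serve in a cytoplasmic ring that promotes removal of the messenger RNA cap. Of its 5 listed genes 3 were below both controls and 2 between them, with a median of -0.16 (-0.073 against control 0 and -0.25 against control 1). LSM4 was at 67.2 and 68.5 FPKM in the control libraries and 52.9 FPKM in siE2F1 (log2 fold change -0.35, SE 0.0624, adjusted p = 0.121). LSM3 was at 86.9 and 93.8 FPKM in the control libraries and 71.0 FPKM in siE2F1 (-0.34, SE 0.0846, adjusted p = 0.151). In these 2 genes siE2F1 stood apart from both controls. Exons of LSM3 overlap those of XPC on the opposite strand. XPC, a DNA repair gene, was at 14.3 and 13.2 FPKM in the control libraries and 16.9 FPKM in siE2F1. Such an overlap is not particular to LSM3, since 17 of the 44 members have one. Levels of opposite-strand partners are given here only for LSM3, SF3A2 and PRPF4, all below both controls. Among listed partners of other members below both controls, QPCTL, GUCD1, CCDC103, HIGD1B, MFSD11 and TFPT were highest in siE2F1. C19orf54 lay between the controls. LSM5 was at 14.9, 16.9 and 14.1 FPKM, LSM6 at 15.2, 16.3 and 16.2 FPKM and LSM7 at 69.7, 82.8 and 80.9 FPKM in control 0, in control 1 and in siE2F1. In LSM5 (log2 fold change -0.16, SE 0.110), LSM6 and LSM7 (0.090, SE 0.143) the controls differed from each other by more than siE2F1 differed from the nearer one.

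The U1 proteins were close to the controls. SNRPA, whose product binds a loop of U1 RNA, was at 24.6 and 22.6 FPKM in the control libraries and 19.95 FPKM in siE2F1 (log2 fold change -0.23, SE 0.0853). SNRPC, which steadies the pairing of U1 with the splice site, was at 64.3, 67.1 and 59.6 FPKM, with a log2 fold change of -0.14 (SE 0.0688), and GENCODE v29 names 18 pseudogenes after it. SNRNP70, the subunit that other factors contact, was at 64.0, 58.3 and 60.8 FPKM, between the controls (-0.0069, SE 0.0931). The median of the 3 was -0.14, with -0.11 against control 0 and -0.17 against control 1.

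Among the U2 proteins, SF3B1 and SF3A2 moved in opposite directions. SF3B1, the large SF3b subunit that clamps the branch point and the target of splicing inhibitors, was at 99.8 and 97.8 FPKM in the control libraries and 134.4 FPKM in siE2F1. Its log2 fold change was 0.44 (SE 0.064), with an adjusted p of 0.112 over all genes tested and 0.0425 in the fit without small RNA genes (limma). SF3A2, a subunit of the SF3a complex, was at 33.0 and 31.3 FPKM in the control libraries and 23.2 FPKM in siE2F1 (-0.45, SE 0.0716, limma adjusted p = 0.115 and 0.0459 in the same 2 fits). In both genes siE2F1 lay beyond the 2 controls by several times their difference. SF3A2 shares exonic sequence with PLEKHJ1 on the opposite strand, and PLEKHJ1 was at 35.3 and 34.2 FPKM in the control libraries and 30.4 FPKM in siE2F1; the labelled library kit does not mark strand, so the reads of such pairs cannot be told apart.

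The other SF3a and SF3b subunits showed smaller differences, and none of the 5 passed limma in either fit. SF3B2, which binds SF3B4, was at 102.0 and 89.1 FPKM in the control libraries and 76.1 FPKM in siE2F1 (-0.32, SE 0.119). The ratio of SF3B1 to SF3B2 was 0.979 and 1.10 in the controls and 1.77 in siE2F1. Other pairs moved less. The ratio of SF3A2 to SF3A1 was 1.40, 1.54 and 1.11 in control 0, in control 1 and in siE2F1. In the same order, SRSF7 to SRSF3 was 0.564, 0.519 and 0.455. That of LSM3 to LSM4 was 1.29, 1.37 and 1.34, between the controls. All these ratios are descriptions. SF3B3 was at 24.3, 21.9 and 20.1 FPKM and SF3B4 at 40.9, 36.1 and 33.9 FPKM in control 0, in control 1 and in siE2F1. The log2 fold change of SF3B3 was -0.19 (SE 0.0977). In SF3B2, SF3B3 and SF3B4 control 1 was already below control 0, and siE2F1 was lower again. SF3A1 was at 23.5, 20.3 and 20.9 FPKM and SF3A3 at 26.9, 26.5 and 25.2 FPKM. SNRPA1 and SNRPB2, which bind a stem of U2 RNA as a pair, were at 63.4, 56.1 and 52.5 FPKM and at 32.0, 35.2 and 31.3 FPKM. Of the 9 U2 genes siE2F1 was below both controls for 7, and their median was -0.18, with -0.26 against control 0 and -0.092 against control 1. U2AF1 and U2AF2, the subunits that read the end of the intron, were at 89.4, 83.4 and 80.4 FPKM and at 73.6, 68.3 and 68.9 FPKM. Their log2 fold changes were -0.10 (SE 0.0806) for U2AF1 and -0.040 (SE 0.0827) for U2AF2, with siE2F1 below both controls in U2AF1 only.

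The U5 proteins gave no common direction, and in 3 of 5 (PRPF8, SNRNP200 and EFTUD2) the controls differed from each other more than siE2F1 differed from their mean. PRPF8, the scaffold of the active centre, was at 71.2 and 51.9 FPKM in the control libraries and 63.96 FPKM in siE2F1. SNRNP200, the helicase that unwinds U4 from U6, was at 52.6 and 41.0 FPKM in the control libraries and 49.0 FPKM in siE2F1. In both genes siE2F1 lay between the controls. EFTUD2, a GTPase, was at 34.6, 30.5 and 29.7 FPKM, PRPF6, which bridges U5 and U4/U6, at 59.2, 53.6 and 48.4 FPKM and SNRNP40 at 26.8, 28.6 and 29.98 FPKM in control 0, in control 1 and in siE2F1. The median log2 fold change of the 5 was 0.072, but it was -0.15 against control 0 and 0.064 against control 1, so its sign depended on the control. PRPF6 had the largest log2 fold change of the 5 (-0.21, SE 0.0954, adjusted p = 0.271), followed by EFTUD2 (-0.13, SE 0.111), SNRNP40 (0.11, SE 0.0776) and SNRNP200 (0.077, SE 0.195).

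Of the U4/U6 proteins, PRPF4 was the lowest relative to control, at 14.1 and 13.2 FPKM in the control libraries and 10.4 FPKM in siE2F1 (log2 fold change -0.36, SE 0.0729, adjusted p = 0.131). PRPF4 overlaps exons of CDC26, a subunit of the anaphase-promoting complex encoded on the opposite strand, which was at 17.4 and 16.4 FPKM in the control libraries and 13.7 FPKM in siE2F1. PRPF3, the binding partner of the PRPF4 protein, was at 39.1, 36.6 and 37.6 FPKM in control 0, in control 1 and in siE2F1, between the controls (-0.0077, SE 0.0778). PRPF31, which holds U4 RNA, was at 24.8, 23.2 and 22.2 FPKM (-0.11, SE 0.0762). PRPF19, a ubiquitin ligase needed for activation of the spliceosome, was at 112.9, 106.1 and 99.4 FPKM (-0.14, SE 0.0774).

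**Figure D3:**
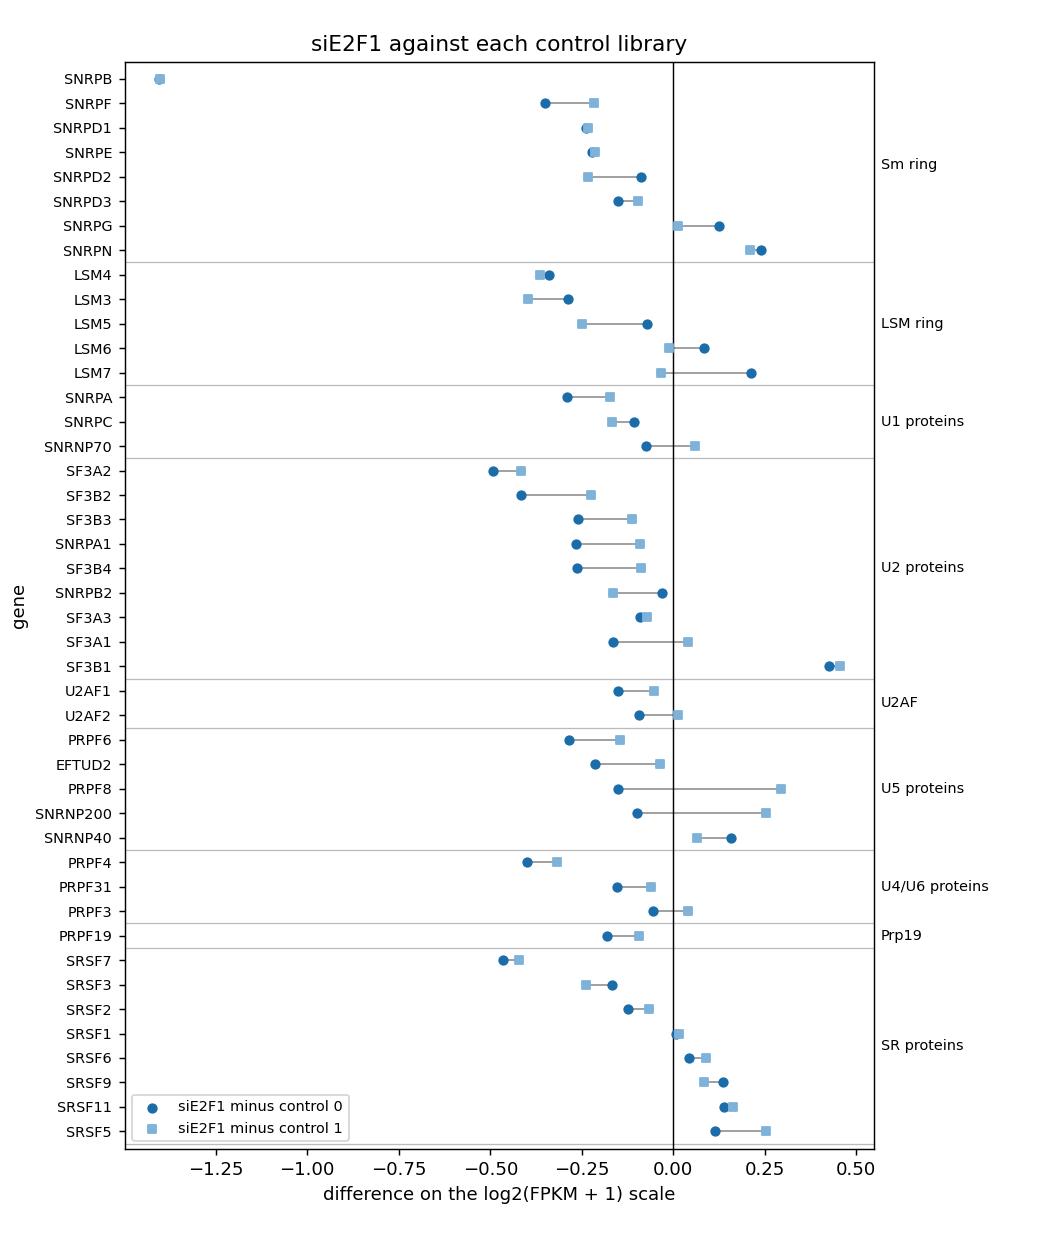
Difference between siE2F1 and each control on the log2(FPKM + 1) scale for the 44 members, grouped by role; circles are against control 0, squares against control 1, and the line joins both. SNRPB lies at about -1.40 against either control, and the SR proteins lie on both sides of 0. PRPF8 and SNRNP200 are among the 8 members that change sign with the control.

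The SR proteins lay on both sides of the controls. Of 8 listed genes 5 were above both controls and 3 below both, with a median of 0.039 (0.025 against control 0 and 0.0495 against control 1). SRSF7, which also takes part in export of messenger RNA, was at 49.3 and 47.8 FPKM in the control libraries and 35.4 FPKM in siE2F1. Its log2 fold change was -0.44 (SE 0.0645, limma adjusted p = 0.112), and it fell in the fit without small RNA genes (adjusted p = 0.0436). SRSF3, its closest relative among the members, was at 87.5, 92.1 and 77.8 FPKM in control 0, in control 1 and in siE2F1 (-0.20, SE 0.0727). SRSF2 was at 117.4, 112.7 and 107.7 FPKM. These 3 were the members of the family with siE2F1 lowest.

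The remaining SR genes were level or slightly higher. SRSF5 was at 110.4 and 100.1 FPKM in the control libraries and 119.6 FPKM in siE2F1 (log2 fold change 0.18, SE 0.0966). SRSF11 was at 77.2 and 75.8 FPKM in the control libraries and 85.0 FPKM in siE2F1 (0.15, SE 0.0628). SRSF9 was at 89.1, 92.4 and 98.1 FPKM and SRSF6 at 73.2, 70.8 and 75.4 FPKM in control 0, in control 1 and in siE2F1. SRSF1, the founding member, was at 65.5, 65.1 and 65.8 FPKM, the narrowest range among these genes. None of these 5 passed limma in either fit.

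Genes that build, modify or work beside these particles were also examined. Of 114 further splicing genes tested in 10 lists, 56 were below both controls and 30 above both, with a median of -0.062, where 39.7% and 43.7% of all genes tested lay below and above. Among all genes tested limma called 0 of the 114, against 0.417% of all genes, and 17 had an unadjusted p under 0.05, against 28.4%. In the fit without small RNA genes 2 fell, HNRNPA3 and LSM11, and none rose, where 10.5% of all genes passed. The lists were chosen by role with earlier results of these data known, and their values are descriptions.

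Among 17 genes of snRNP assembly, which load Sm rings onto RNA and methylate Sm tails, 6 were below both controls and 6 above both (median 0.0043). GEMIN5, which selects the RNA for ring assembly, was at 5.96 and 5.39 FPKM in the control libraries and 3.91 FPKM in siE2F1. WDR77, the partner of the methyltransferase PRMT5, was at 26.9, 24.2 and 19.0 FPKM, and STRAP, of the SMN complex, at 100.7, 95.8 and 76.5 FPKM in control 0, in control 1 and in siE2F1. These 3 had siE2F1 below both controls, with adjusted p from 0.131 to 0.147. SMN2, chosen after its values were seen, had the lowest adjusted p of the list (0.125) and lay above both controls, at 9.62, 9.85 and 12.5 FPKM (log2 fold change 0.33). Its near-identical copy SMN1 was below both, at 29.4, 31.1 and 26.6 FPKM, and reads could be divided between the 2 genes.

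Of 25 hnRNP genes, which bind nascent RNA and often oppose SR proteins, 17 were below both controls and 3 above both, with a median of -0.19 (-0.23 against control 0 and -0.12 against control 1). HNRNPA3 fell, with 63.6 and 57.5 FPKM in the control libraries and 37.5 FPKM in siE2F1 (log2 fold change -0.68, limma adjusted p = 0.0374 without small RNA genes and 0.112 with them). PCBP1 was at 106.0, 93.7 and 71.9 FPKM and HNRNPUL2 at 16.8, 14.1 and 10.97 FPKM in control 0, in control 1 and in siE2F1. Both were lowest in siE2F1 without passing.

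The 6 kinases that phosphorylate SR proteins had a median of 0.22, with 5 above both controls. SRPK1 was the one below, at 19.9 and 19.6 FPKM in the control libraries and 14.9 FPKM in siE2F1 (log2 fold change -0.39, adjusted p = 0.114). SRPK2, its relative, was at 21.3 and 21.5 FPKM in the control libraries and 25.5 FPKM in siE2F1, and CLK1 at 25.3, 27.96 and 31.6 FPKM. These siE2F1 values lie on opposite sides of the controls, and none passed. Of 8 other SR and SR-like genes tested, 3 were below both controls and 1 above both (median -0.091). SRRM2, a scaffold of nuclear speckles, was the one above, at 75.9 and 57.7 FPKM in the control libraries and 88.5 FPKM in siE2F1, but control 1 minus control 0 was -0.39 on the same log2 scale. SRSF4 was at 29.03, 28.3 and 24.8 FPKM and TRA2A at 48.1, 46.0 and 41.8 FPKM.

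The lists of other factors of U2, of U4/U6.U5 and of the catalytic steps had medians near 0, and none of their genes passed limma in either fit. Of 11 other U2 and branch-site factors 7 were below both controls (median -0.085), and the 3 that differed most were SF3B14, now called SF3B6 (log2 fold change 0.17), RBM17 (-0.17) and U2SURP (0.15). Of 11 other U4/U6.U5 factors 6 were below both controls (median -0.062), led by PPIH, a prolyl isomerase, at 29.6, 32.4 and 24.6 FPKM in control 0, in control 1 and in siE2F1, with SART1 at -0.26 and USP39 at -0.21 (log2 fold changes). Of 18 other Prp19 complex and catalytic-step factors 7 were below both controls and 4 above both (median -0.039), with CDC5L at -0.27, BCAS2 at -0.20 and CRNKL1 at 0.13.

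**Figure D4:**
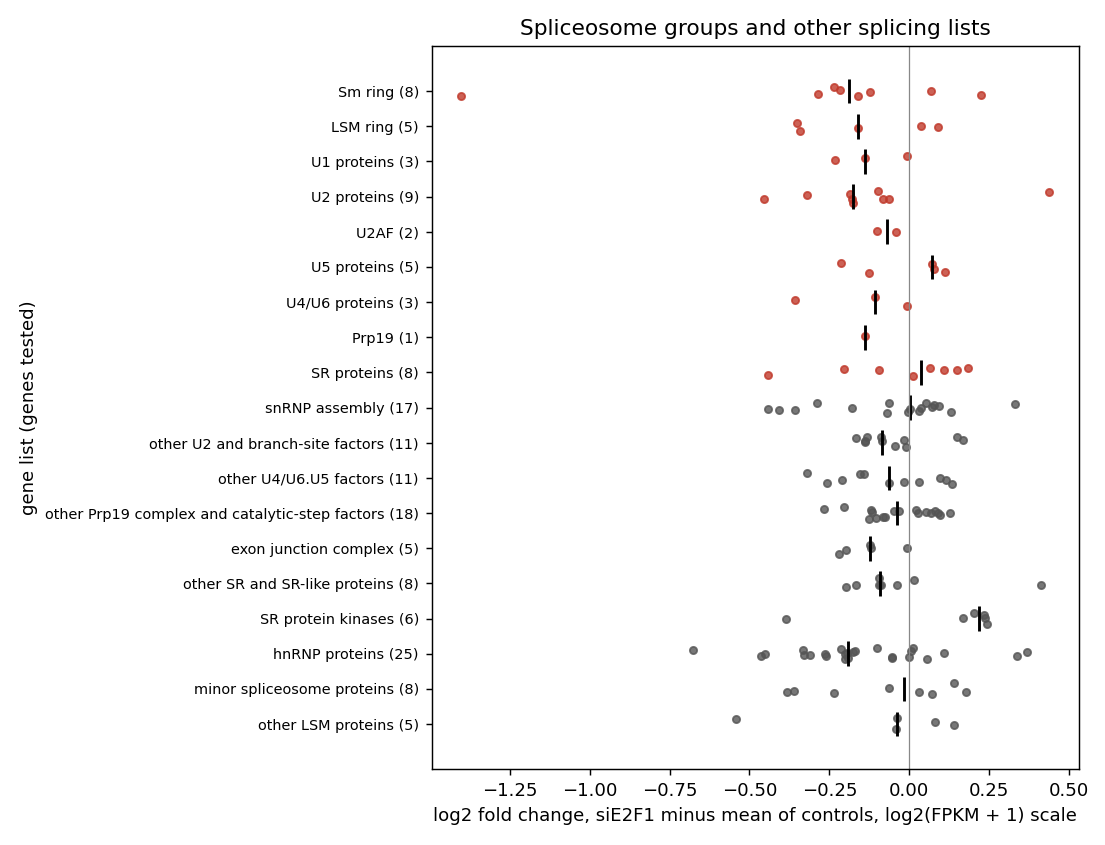
Log2 fold change (siE2F1 minus the mean of the controls, log2(FPKM + 1) scale) of each tested gene in the member groups (red) and the other splicing lists (grey); vertical bars are medians and numbers in brackets count genes. SNRPB at -1.40 is the lowest point, the SR kinases have the highest median (0.22) and the hnRNP genes a median of -0.19.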

How the data were processed

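The authors deposited log2 FPKM for 3 libraries. TopHat2 2.0.4, Cufflinks 2.0.2 and hg19 come from the submitters' processing notes, and the gene models behind them are not given in the sources used here. Their lowest value equals log2 of 0.1, so FPKM was computed as 2 to the deposited value minus 0.1, which would be 0.1 too low if a minimum had been set. Sorted values differ by at most 0.0653 log2 units between libraries, as after quantile normalization, which hides a change shared by most genes. Depth is unknown, so no counting interval is given.

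The 14401 genes averaging 1 FPKM or more (13928 when small RNA genes, known by their symbols, are left out) were tested on log2(FPKM + 1) with limma 3.58.1 in R 4.3.3, two-sided, with a mean-variance trend and Benjamini-Hochberg adjustment over all genes at 0.05. The spread has 1 residual degree of freedom per gene, from the controls, and siE2F1 is assumed to vary alike. Every member is named; within a group those with the largest log2 fold change (up to 4) have standard errors, and each further list names up to 3. Genes chosen otherwise are SNURF, SNHG14, AC124312.1, XPC, PLEKHJ1, CDC26 and the other opposite-strand partners named, which overlap members, and SMN1 and SMN2. The members and lists were chosen with earlier results of these data known. Alternatives were a pseudocount of 0.1, no filter or a mean of 5 FPKM, a common median, no trend, no small RNA genes and each control left out. Promoters came from RefSeq (GRCh38.p14), and overlaps and pseudogenes from GENCODE v29, both used for names and sequence and not joined to hg19 positions. Protein sequences were not used here.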

Additional observations from a re-analysis of the deposited data

How the results depend on the processing

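The number of members called was 0 under each setting with a test except the fit without small RNA genes, where it was 4 (3 lower and 1 higher). The common median moved no value, since the library medians were already equal, and says nothing about stability. The log2 fold change of SNRPB lay between -1.42 and -1.40, and only the pseudocount and the leaving out of a control altered it. Its adjusted p (limma) was 0.0184 without small RNA genes (-1.40) and between 0.0636 and 0.183 otherwise. E2F1 no longer passed when the pseudocount was 0.1 (-2.59, adjusted p = 0.0601) or when all genes above the minimum entered the fit (-2.12, adjusted p = 0.159); the cause was not tested. Leaving out a control makes the place rule easier to meet: 29 to 33 members were then below and 11 to 15 above, the 15 without control 0. The Sm ring median ranged from -0.22 to -0.19 and the U5 median from -0.15 to 0.064 without either control, so the U5 sign reversed without control 1. No member's log2 fold change turned sign with the pseudocount of 0.1. The filters, the trend and the small RNA genes cannot alter a fold change, so those settings say nothing about its stability. The 1 siE2F1 library and the unknown depth limit every comparison, and differences near the distance between the controls (median 0.095 log2 units) cannot be resolved. No paired analysis was possible because the label of the siE2F1 library carries no replicate number and there is only 1 such library.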

Other observations

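Proteins of the minor spliceosome, which removes a rare class of introns, split evenly. Of 8 tested, 3 were below both controls, 3 above both and 2 between (median log2 fold change -0.016). SNRNP25 was at 39.6 and 42.0 FPKM in the control libraries and 31.0 FPKM in siE2F1, and PDCD7 at 6.90, 6.76 and 5.10 FPKM in control 0, in control 1 and in siE2F1. SNRNP35 was at 19.0, 17.1 and 15.2 FPKM. These 3 had siE2F1 lowest, with adjusted p from 0.121 to 0.246 (limma, all genes tested).

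LSM11, a subunit of the U7 snRNP that trims the ends of histone messenger RNAs, was at 1.99 and 1.92 FPKM in the control libraries and 1.03 FPKM in siE2F1. Its log2 fold change was -0.54 (limma adjusted p = 0.113, or 0.0498 once small RNA genes are left out). These levels are near the minimum mean of 1 FPKM set for testing, where the added 1 shrinks a log2 difference. In siE2F1 the level was 52.6% of the control mean. LSM10, its partner in that particle, was at 28.4, 29.2 and 30.5 FPKM and LSM1, of the cytoplasmic ring, at 28.6, 30.4 and 32.6 FPKM in control 0, in control 1 and in siE2F1, so both were highest in siE2F1. Of 5 exon junction complex genes, which mark spliced joints, 4 were below both controls (median -0.12), led by RBM8A at 23.01, 23.3 and 19.8 FPKM, MAGOHB at 5.58, 6.27 and 5.03 FPKM and MAGOH at 35.1, 35.3 and 32.3 FPKM. None of the 5 passed in either fit.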
